A study of Caenorhabditis elegans with 2 samples.

Results

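The 6 genes of phenylalanine and tyrosine breakdown were examined for binding of the transcription factor ELT-3 in *Caenorhabditis elegans* larvae, in the order of the steps they catalyse. They are *pah-1* (II, 8762622 to 8766997, minus strand), *tatn-1* (X, 14791008 to 14792984, plus), *hpd-1* (III, 10535526 to 10537680, plus), *hgo-1* (I, 9049460 to 9055457, minus), *gst-42* (X, 11726264 to 11727936, minus) and *fah-1* (X, 6446746 to 6448916, minus). They were taken by name, 6 of 19973 protein-coding genes, and 3 of the 6 lie on X, which holds 13.7% of coding genes. A region was given to a gene when its summit, the position of highest signal, lay in the gene window, from 3000 bases upstream of the outermost annotated start to 1000 bases past the gene end. The windows of the 6 genes were 5673 to 9998 bases long, against a median of 6027 over all coding genes.

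The data are from chromatin immunoprecipitation followed by sequencing (ChIP-seq) on whole L3 larvae of both sexes. The larvae were of strain OP75, which carries unc-119(ed3) and the transgene wgIs75 and makes ELT-3 tagged with GFP and FLAG at its C terminus. There were 2 biological replicates of this single group and no second condition, so the tagged transgene and the unc-119 mutation are common to everything described. Per replicate the deposited list held 30000 regions, peaks and background together. A list of 30000 regions called on the pooled replicates and a list of 774 regions that passed a test of reproducibility between replicates (the irreproducible discovery rate, IDR) were used as well. Rank 1 is the strongest region of a list. For the replicate lists, the 774 strongest regions were taken as strong sites, as many as the IDR list holds. In whole larvae, binding in fewer cells and weaker binding in each cell cannot be told apart.

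ELT-3 is a zinc finger protein of the GATA family known from the worm epidermis, the tissue that makes the cuticle. The pathway turns phenylalanine into tyrosine and takes tyrosine apart into fumarate and acetoacetate, which feed energy metabolism. Its human counterparts are known from inherited disorders such as phenylketonuria, alkaptonuria and tyrosinemia. In the worm, the product of *pah-1* is known to supply tyrosine for cuticle pigment in the epidermis, loss of *tatn-1* is known to raise tyrosine, and loss of *fah-1* is known to harm the intestine.

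The sequences at the strongest pooled summits are shown for 5 of the 6 genes because the GATA sequences around them differ from gene to gene. That of *hgo-1* is not shown here. Each is read 5′ to 3′ on the strand of its gene, and capitals mark every WGATAR, the sequence that GATA factors recognise, which is GATA with A or T before it and A or G after it, on either strand. The positions are on ce11, and the number in each name is the distance of the pooled summit from the nearest start of the gene, with minus for upstream. For *pah-1*, both *hpd-1* sites and the site inside *gst-42*, the run covers the summit and 100 bases on either side. For *tatn-1* and *fah-1*, it spans the summits of the pooled and replicate lists with a margin. At the start of *gst-42* it ends at the last base before the annotated start.
pah-1 +500, chrII:8766397-8766597: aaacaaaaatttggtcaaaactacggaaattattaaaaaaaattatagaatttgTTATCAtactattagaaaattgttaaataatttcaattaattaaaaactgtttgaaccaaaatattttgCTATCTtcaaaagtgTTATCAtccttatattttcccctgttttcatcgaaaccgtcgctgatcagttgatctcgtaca
tatn-1 -358, chrX:14790482-14790757: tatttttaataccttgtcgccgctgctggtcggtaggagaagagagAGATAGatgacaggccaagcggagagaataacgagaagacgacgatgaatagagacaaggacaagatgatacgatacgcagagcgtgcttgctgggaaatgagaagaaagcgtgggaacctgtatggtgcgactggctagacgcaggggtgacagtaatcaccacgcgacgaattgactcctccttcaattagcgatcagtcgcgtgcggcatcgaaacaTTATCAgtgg
hpd-1 -2068, chrIII:10533358-10533558: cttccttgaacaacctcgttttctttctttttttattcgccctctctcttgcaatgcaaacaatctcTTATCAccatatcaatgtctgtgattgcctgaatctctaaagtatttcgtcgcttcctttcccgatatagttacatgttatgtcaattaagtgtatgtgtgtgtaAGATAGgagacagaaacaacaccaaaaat
hpd-1 -1253, chrIII:10534173-10534373: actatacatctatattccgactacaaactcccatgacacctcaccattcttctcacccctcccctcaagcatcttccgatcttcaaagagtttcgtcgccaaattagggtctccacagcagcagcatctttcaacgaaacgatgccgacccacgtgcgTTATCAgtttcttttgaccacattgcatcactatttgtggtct
gst-42 -37, chrX:11727937-11728073: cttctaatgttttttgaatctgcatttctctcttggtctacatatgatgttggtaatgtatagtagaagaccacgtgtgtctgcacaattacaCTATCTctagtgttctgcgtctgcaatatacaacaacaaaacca
gst-42 +1318, chrX:11726518-11726718: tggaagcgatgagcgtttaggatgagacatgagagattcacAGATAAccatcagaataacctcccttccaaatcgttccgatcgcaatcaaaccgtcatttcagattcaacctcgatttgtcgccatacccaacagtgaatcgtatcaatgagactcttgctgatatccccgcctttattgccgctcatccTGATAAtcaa
fah-1 -255, chrX:6449032-6449318: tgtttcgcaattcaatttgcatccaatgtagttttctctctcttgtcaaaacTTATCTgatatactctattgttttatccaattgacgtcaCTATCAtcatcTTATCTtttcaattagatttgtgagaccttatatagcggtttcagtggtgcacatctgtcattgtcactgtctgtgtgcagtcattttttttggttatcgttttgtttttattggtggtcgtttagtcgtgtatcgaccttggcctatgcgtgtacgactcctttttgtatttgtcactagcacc

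ELT-3 sites of the IDR list lay at the third, the fifth and the sixth step of the pathway. Of the 6 genes, *hpd-1*, *gst-42* and *fah-1* had an IDR region in the window, against 4.96% of all coding genes. *hpd-1* and *gst-42* had 2 each, which 0.551% of coding genes had. *pah-1*, *tatn-1* and *hgo-1* had none, and the nearest IDR summits lay 24595, 27832 and 27787 bases from their starts. In the narrower promoter window, from 1000 bases upstream to 200 bases downstream of a start, *gst-42* and *fah-1* had an IDR summit, against 1.94% of coding genes. No test was made on the list, since the genes were chosen by name with earlier results of these data known.

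The replicates differed in which steps had a strong site. Among the 774 strongest regions of replicate 1, *hpd-1*, *gst-42* and *fah-1* had a summit in the window, against 4.94% of coding genes. In replicate 2 these were *tatn-1*, *hgo-1*, *gst-42* and *fah-1*, against 4.99%. *gst-42* and *fah-1* had one in each replicate (2.55% of coding genes), and 5 of the 6 genes had one in at least 1 replicate (7.38%). Within the promoter window the counts were 2 of 6 in replicate 1 (1.91% of coding genes) and 4 of 6 in replicate 2 (1.92%). With 2 replicates the difference between them could not be tested.

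Weaker regions were present at every step. All 6 windows held a region of the pooled list, as did 84.2% of all coding gene windows. All 6 held one of the 3000 strongest pooled regions, against 16.7% of coding genes. That limit was chosen after the values were seen and lies past rank 2625 of the weakest of the 6, so the choice fixed the count. The median rank of the strongest pooled region was 1037.5 over the 6 genes and 9009 over the 16809 coding genes with such a region. The corresponding medians were 988.5 and 9017 in replicate 1, and 532.5 and 8745.5 in replicate 2. In all, the 6 windows held 27 pooled regions, 26 of replicate 1 and 24 of replicate 2, or 0.638 pooled summits per 1000 bases against 0.312 over all coding gene windows.

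**Figure D1:**
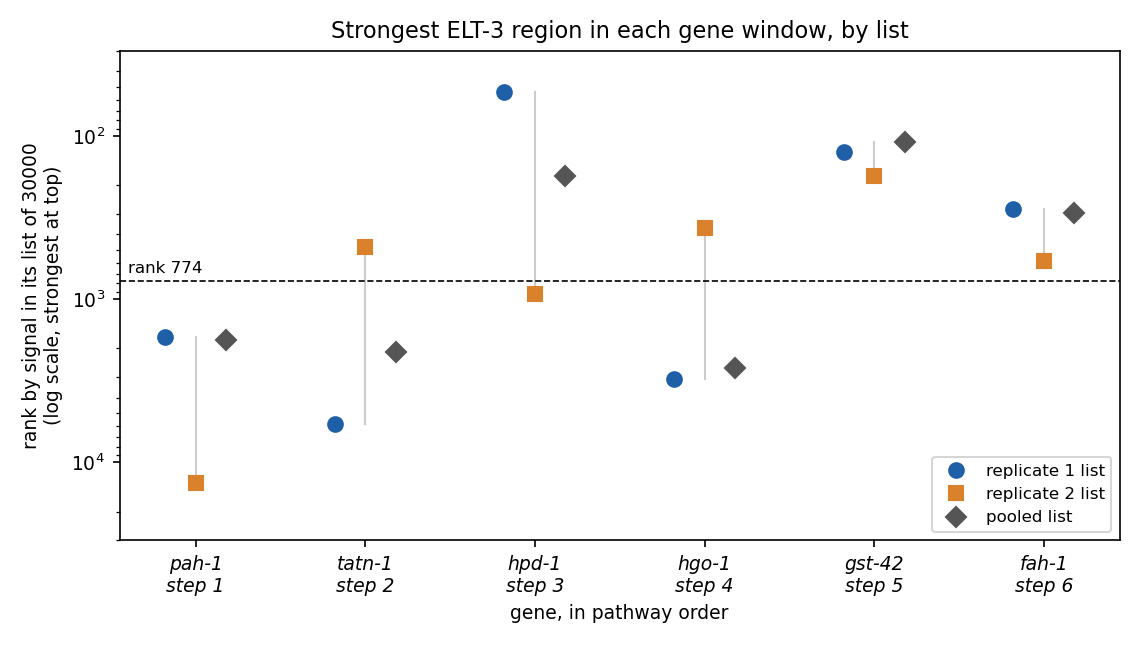
Rank of the strongest region in each gene window, on a log axis with the strongest at the top, in the replicate 1 (circles), replicate 2 (squares) and pooled (diamonds) lists of 30000 regions. The dashed line is rank 774. *gst-42* and *fah-1* are above it in all 3 lists, *pah-1* in none, and the other 3 genes change side between the replicates.

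The first step, hydroxylation of phenylalanine to tyrosine, is catalysed by phenylalanine hydroxylase, the product of *pah-1*. Its strongest region, at chrII:8766327-8766666, had a signal of 22.8 and rank 1777 in the pooled list, where the lowest IDR signal was 29.5. The signal was 14.7 (rank 1697) in replicate 1 and 6.15 (rank 13295) in replicate 2, close to that list's median of 5.91. The replicate summits were 9 bases apart, so the position was shared while the rank was not. The pooled summit lay in the first intron of the longer transcript, 500 bases past its start, and 278 bases upstream of the start of *nsph-1.1*, which runs the other way. It is thus also in the promoter window of *nsph-1.1* and of K08F8.15, and not in that of *pah-1*. The 100 bases on either side of the summit held 3 WGATAR and were 25.4% G and C. The median was 36.3% at pooled summits and 39.6% at IDR summits. The other 4 pooled regions in the window ranked from 13174 to 28105 and held no WGATAR within 100 bases of their summits.

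The second step, removal of the amino group of tyrosine, is catalysed by tyrosine aminotransferase, the product of *tatn-1*. Upstream of it lay a region with a pooled signal of 21.6 and rank 2110, at chrX:14790480-14790819. In replicate 2 it had a signal of 15.2 and rank 480, with the summit 456 bases upstream of the start. In replicate 1 it had a signal of 10.7 and rank 5785, with the summit 321 bases upstream. The summits were thus 135 bases apart, where the median gap was 35 bases and the upper quartile 79 over the pooled regions ranked below the IDR list down to 3000 in which each replicate had a summit. The pooled summit, 358 bases upstream, lay between them, and had no WGATAR within 100 bases. AGATAG, 480 bases upstream, lay within 100 bases of the replicate 2 summit, and a TGATAA on the other strand, 260 bases upstream, within 100 bases of that of replicate 1. The sequence here was rich in G and C, 49.8% within 100 bases of the pooled summit. The other 4 pooled regions of the window had signals of 10.6 to 14.4.

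The third step, oxidation of 4-hydroxyphenylpyruvate to homogentisate, is catalysed by the dioxygenase that *hpd-1* encodes. It had a pair of IDR regions in the intergenic sequence upstream, with summits 815 bases apart. The farther one, at chrIII:10533288-10533627 and 2068 bases upstream, had a pooled signal of 45.3 (rank 175). It had 37.7 (rank 54) in replicate 1 and 9.68 (rank 2535) in replicate 2. The nearer one, at chrIII:10534103-10534442 and 1253 bases upstream, had a pooled signal of 41.7 (rank 254), with 27.1 (rank 240) in replicate 1 and 12.5 (rank 931) in replicate 2. The replicate summits of the nearer one were 2 bases apart and those of the farther one 66. Both regions were thus strong in replicate 1 and outside the 774 strongest of replicate 2, the farther one by far. The farther summit lay closer to a start of *unc-49*, a GABA receptor gene (2025 bases), than to that of *hpd-1*. The farther summit had 2 WGATAR within 100 bases and the nearer one 1.

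Inside *hpd-1* the replicates stood in the opposite order. A region in the first coding exon, 369 bases past the start in the pooled list, had a pooled signal of 20.4 (rank 2628). It had 11.6 (rank 1276) in replicate 2, with the summit 289 bases past the start and 1 WGATAR within 100 bases, and 7.61 (rank 18191) in replicate 1. No region of any of the lists had its summit in the promoter window of *hpd-1*.

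The fourth step, opening of the ring of homogentisate, is catalysed by homogentisate dioxygenase, the product of *hgo-1*. Its start had a strong region in replicate 2 that replicate 1 lacked. Replicate 2 had a region at I 9055426 to 9055761 with a signal of 16.4 (rank 367) and its summit 137 bases upstream. Replicate 1 had no region with a summit there. Of the 774 strongest regions of replicate 2, 91 (11.8%) contained no summit of the replicate 1 list. In the pooled list the region had a signal of 18.5 and rank 3772. It held 1 WGATAR within 100 bases of the summit. Others in the region, beginning at I 9055431, 9055458, 9055466 and 9055475, lay farther from the summit. The replicate 2 summit is 699 bases upstream of *spe-46*, a gene on the other strand.

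The long first intron of *hgo-1* held 3 further pooled regions, with signals of 20.4 (2534 bases past the start, rank 2625), 18.9 (669 bases, rank 3523) and 16.5 (1519 bases, rank 6046). Each of the 3 had a summit of both replicates, with ranks of 3583, 3837 and 12635 in replicate 1 and of 8184, 12506 and 23624 in replicate 2. The first of these had the highest pooled signal of the window, and the strongest replicate 1 region (12.6, rank 3097) had its summit 2738 bases past the start, in the same intron. No summit in this intron was among the 774 strongest of either replicate.

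The fifth step turns maleylacetoacetate into fumarylacetoacetate and is catalysed by *gst-42*, a glutathione transferase of the zeta class. Its region at chrX:11727803-11728142 had a pooled signal of 52.0 (rank 109), the highest of the 6 genes in the pooled list and in replicate 2, while in replicate 1 the farther *hpd-1* region was higher. The signal was 31.5 (rank 126) in replicate 1 and 19.9 (rank 176) in replicate 2, with summits 12 bases apart, so rank and position were shared. The pooled summit was 37 bases upstream of *gst-42* and 178 bases upstream of D1053.2, which runs the other way. Of the 2 WGATAR within 100 bases, AGATAG on the other strand began 44 bases upstream of the start, 7 bases from the pooled summit, and a TGATAA lay past the start, outside the printed run.

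A second IDR region had its summit in the last intron of *gst-42*, at the edge of the last exon, at chrX:11726448-11726787, with its summit 1318 bases past the start and 1355 bases from the first. Its pooled signal was 37.5 (rank 366), with 25.7 (rank 289) in replicate 1 and 9.79 (rank 2437) in replicate 2. The site thus resembled those of *hpd-1* in being strong in replicate 1 alone. It held 2 WGATAR, both on the gene strand. Of all IDR regions, 129 (16.7%) had another IDR summit within 2000 bases.

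The last step, cleavage of fumarylacetoacetate into fumarate and acetoacetate, is catalysed by the product of *fah-1*. Its IDR region, at chrX:6449001-6449340, had a pooled signal of 39.6 (rank 298) and a summit 255 bases upstream. The signal was 26.0 (rank 280) in replicate 1, with the summit 235 bases upstream. In replicate 2 the region contained 2 summits 206 bases apart, one 156 bases upstream (14.3, rank 585) and one 362 bases upstream (11.5, rank 1308). The pooled and replicate 1 summits lay between these. All 3 WGATAR of the printed run, 350, 311 and 300 bases upstream, were on the other strand and lay between the farther replicate 2 summit and the pooled summit. The nearer replicate 2 summit had no WGATAR within 100 bases. Apart from this region the pooled list had 1 other in the window, with a signal of 14.5, in the 3′ UTR of *grl-6*.

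**Figure D2:**
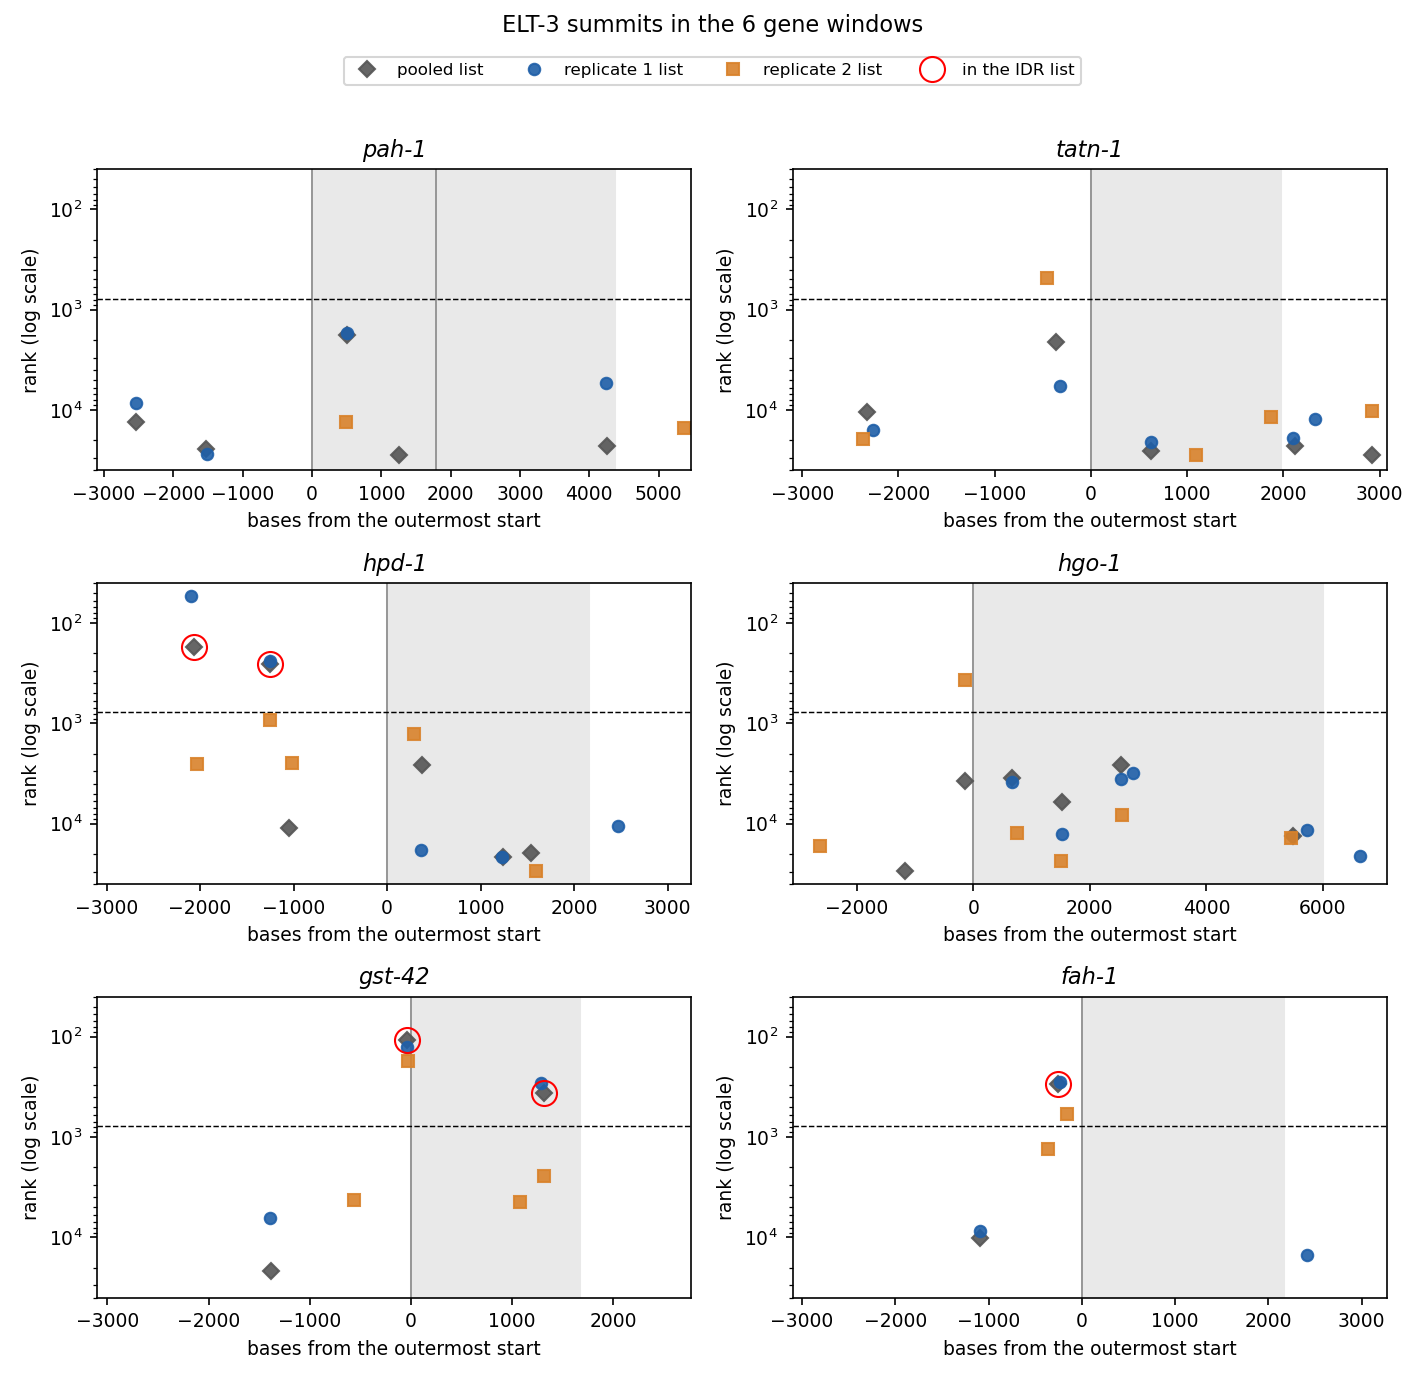
Summits of the pooled (diamonds), replicate 1 (circles) and replicate 2 (squares) lists in the 6 gene windows, by distance from the outermost start in the direction of transcription and by rank on a log axis. Grey marks the gene, thin lines the annotated starts, red rings the 5 IDR regions and the dashed line rank 774. The IDR regions lie far upstream of *hpd-1*, at the start and in the last intron of *gst-42*, and just upstream of *fah-1*.

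The spread between replicates sets how firmly single ranks can be read. Over the 757 IDR regions with a summit of both replicates, the larger rank was 3.15 times the smaller at the median, 7.43 times at the upper quartile and 19.2 times at the 90th percentile. The *gst-42* start region (1.40 times) and the *fah-1* region (2.09 times) were below this median. The nearer *hpd-1* region (3.88 times) was between the median and the upper quartile, and the *gst-42* intron region (8.43 times) was above the upper quartile. The farther *hpd-1* region, at 46.9 times, was beyond the 90th percentile. Of 2226 pooled regions ranked below the IDR list down to 3000, 1919 had a summit of both replicates. Over these 1919, the median was 3.63 times and the 90th percentile 16.5 times. Of the member regions in that range, *hgo-1* at 2534 bases past the start had 2.28 times, *pah-1* 7.83, *tatn-1* 12.1 and the exon region of *hpd-1* 14.3. Of the 12 pooled regions of the 6 genes with summits in each replicate, 2 had the better rank in replicate 2, against 50.5% of all such pooled regions. Regions of 1 gene share a window, so these 12 are not independent.

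**Figure D3:**
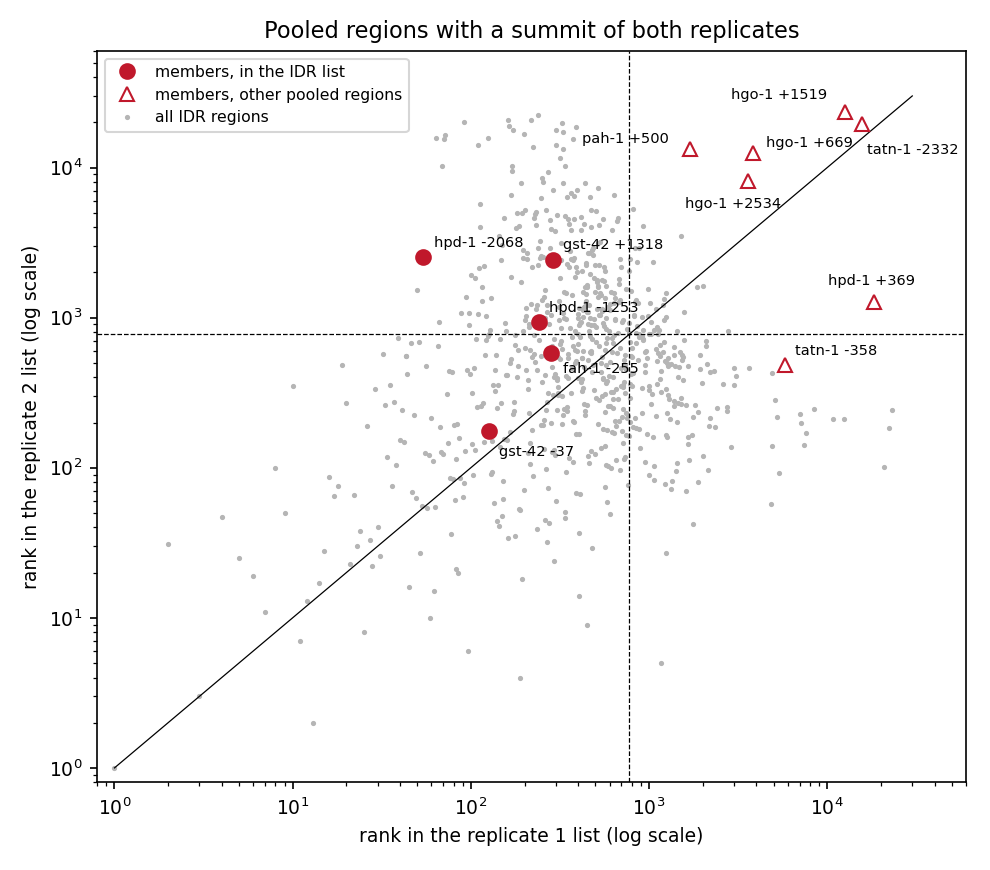
Rank in replicate 2 against rank in replicate 1, both on log axes, for pooled regions in which each replicate had a summit. Red circles are the 5 IDR regions of the pathway genes, white triangles their other 7 regions and grey points all IDR regions. The line marks equal ranks and the dashed lines rank 774. The *gst-42* start and *fah-1* regions lie inside both limits, while the *tatn-1* region 358 bases upstream and the exon region of *hpd-1* lie on the replicate 2 side of the line.

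WGATAR was present at most, though not all, of the strongest regions. It lay within 100 bases of the strongest pooled summit for 5 of the 6 genes, all except *tatn-1*. These 6 summits ranked from 109 to 2625. The share of 41.2% over all pooled regions, most of them weaker, is thus not a like comparison. WGATAR was present at all 5 IDR regions of the pathway, against 74.3% of all IDR regions, a higher share than in the pooled list. Of the 27 pooled regions in the windows, 11 held it within 100 bases of the summit, a share similar to the 41.2% of all pooled regions. The 6 windows contained 126 WGATAR in all, or 2.98 per 1000 bases, against 2.38 in the nuclear genome. Of these 126, 10 lay within 100 bases of an IDR summit and 18 within 100 bases of any pooled summit. The share of window sequence that close to a summit was not computed, so these counts do not show an excess near summits. A match is a spelling and does not show that ELT-3 was bound to it.

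**Figure D4:**
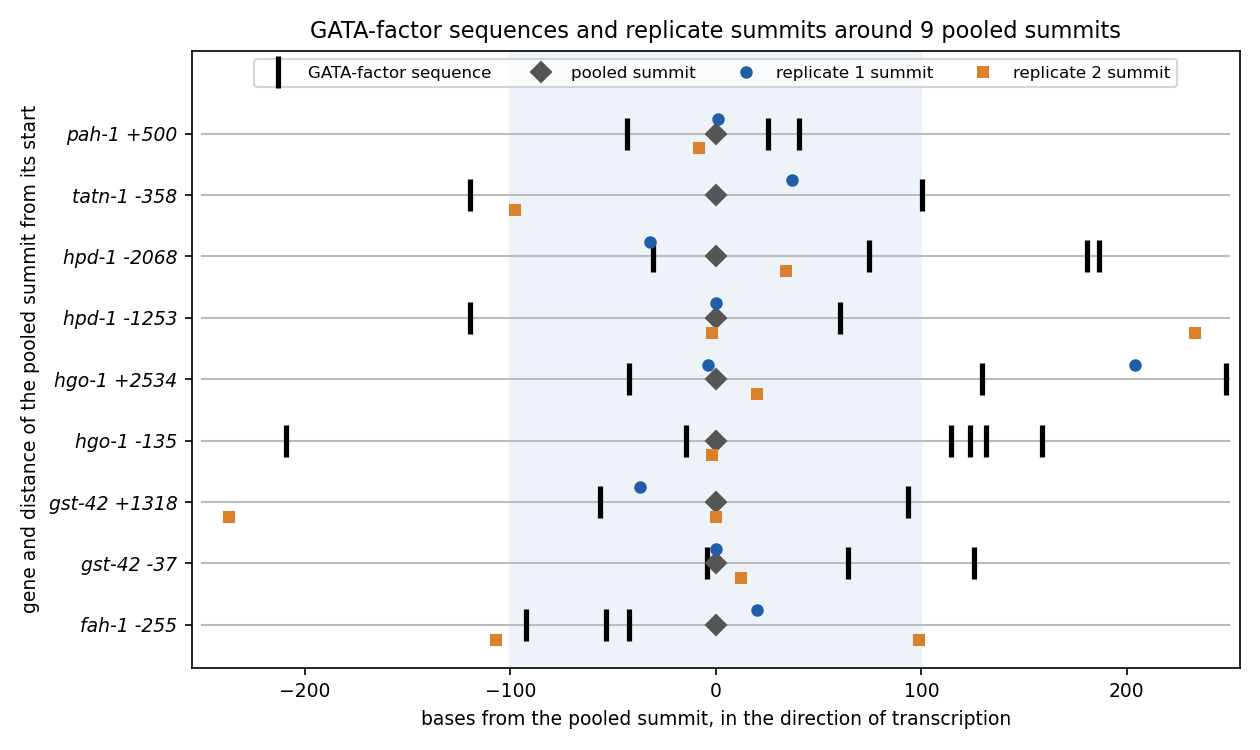
GATA-factor sequences (bars) and the summits of replicate 1 (circles) and replicate 2 (squares) around 9 pooled summits (diamonds), by distance in bases in the direction of transcription. Shading marks the 100 bases on either side. At *tatn-1* the replicate summits lie on either side of the pooled one, each within 100 bases of a different GATA-factor sequence. At *fah-1* the 2 replicate 2 summits enclose the others.

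Genes that supply the cofactor or use the same compounds were looked at beside the pathway. Of 12 such genes, *qdpr-1* and *pcbd-1* had an IDR region in the window, beside the 4.96% of all coding genes. *qdpr-1* encodes the reductase that regenerates tetrahydrobiopterin, the cofactor of *pah-1*, and *pcbd-1* the dehydratase of the same cycle. The *qdpr-1* region had its summit 81 bases upstream and a pooled signal of 34.6 (rank 486). It ranked 720 in replicate 1, with the summit 27 bases upstream, and 375 in replicate 2. The *pcbd-1* summit lay 284 bases past the start, with a pooled signal of 32.3 (rank 593) and ranks of 422 in replicate 1 and 2041 in replicate 2. Neither held WGATAR within 100 bases. The other 10 had no IDR region. The strongest pooled regions among these 10 were at *kat-1* (rank 790), *ptps-1* (rank 1120) and *cat-2* (rank 1223). *gst-43*, named after its values were seen as the other zeta class transferase, had its strongest pooled region at rank 12429.

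Of 8 genes of tryptophan breakdown, the other aromatic route, *tdo-2* and *acsd-1* had an IDR region, beside the 4.96% of all coding genes. *haao-1* had none, with its strongest region at pooled rank 853 and ranks of 864 in replicate 1 and 1426 in replicate 2. *tdo-2* encodes tryptophan dioxygenase, the first enzyme, and its region 1602 bases upstream had a pooled signal of 60.0 (rank 64), with ranks of 292 in replicate 1 and 24 in replicate 2. It held 4 WGATAR within 100 bases of the summit. *acsd-1* encodes a decarboxylase of the pathway and had a window of 30462 bases. Its region 31 bases upstream of a start had a pooled signal of 36.9 (rank 385) and rank 125 in replicate 1, and in replicate 2 a signal of 5.85 (rank 15649), near that list's median. The counts of 3 of 6, 2 of 12 and 2 of 8 were not compared by a test.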

How the data were processed

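Whole L3 larvae of 1 group with 2 biological replicates were profiled by ChIP-seq for tagged ELT-3. The authors' deposited ce11 lists give 1 signal value per region, the authors' own, which was compared only inside its list. The aligner, the caller, the IDR threshold and the signal's scale: not given in the sources used here. Per the deposited descriptions, replicate lists were called on each replicate with a further file, the pooled list on both with the same kind of file, and the IDR list was derived from all 3. No read counts were used, so depth is unknown. The ce10 lists were not used. Tied regions took the lowest rank.

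Genes and starts came from Ensembl release 115 and sequence from RefSeq, both WBcel235, which has ce11 coordinates. Positions are 1-based. Many worm transcripts are trans-spliced, so annotated starts can lie downstream of where transcription begins. A pooled region took the strongest summit of each replicate inside it. WGATAR was sought within 100 bases of each summit. Window counts and motif search were tested on simulated data. Counts are set beside all 19973 coding genes, without a set test, and genes are not replicates. The members, the 2 other lists and their alternatives were chosen with earlier results of these data known. All 6 members are named. Of the other lists, those with an IDR region are named, with a few others chosen after their values were seen. Python 3.11.15, numpy 2.4.6 and pandas 2.3.3 were used.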

Additional observations from a re-analysis of the deposited data

How the results depend on the processing

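The count of pathway genes with an IDR region was 3 and became 2 with windows from 1000 bases upstream or the promoter window, which leave *hpd-1* out. It was 3 under the other settings of window, overlap and list length, where the longer list was the 1548 strongest pooled regions. An IDR list needs both replicates, so for these counts the 774 strongest regions of the remaining replicate stood in for it. Leaving out a replicate thus repeats the replicate counts given above and is no check of the IDR list itself. It gave 3 to 4, with *gst-42* and *fah-1* in each case, *hpd-1* without replicate 2, and *tatn-1* and *hgo-1* without replicate 1. In replicate 2 the count of 4 fell to 2 (*hgo-1* and *gst-42*) with 387 regions in place of 774 and was 5 with 1548, which add *hpd-1*. The median rank of 1037.5 was 2110 in the promoter window, where *hpd-1* has no region, 1943.5 with windows from 1000 bases upstream, and 532.5 to 988.5 without a replicate. The count of 5 genes with WGATAR ranged from 4 to 6.

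For the cofactor list, the count of 2 was 4 with windows from 5000 bases upstream and 1 in the promoter window. It was 0 with the 387 strongest IDR regions, 5 with the 1548 strongest pooled regions and 1 to 3 without a replicate. For tryptophan breakdown, 2 became 1 with windows from 1000 bases upstream, the promoter window or the nearest start, and was 2 to 3 without a replicate. The alternatives for these lists, and ranks without a replicate, were added after the data were seen. The causes were not tested beyond what each setting leaves out. Depth is unknown, so a region missing from a list is not shown to be unbound. No paired analysis was possible because the study has a single group.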

Other observations

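Sequences other than WGATAR recurred near these summits, and the search for them was not planned. GAGAGA, sought on both strands, lay within 100 bases of the pooled summit at the farther *hpd-1* site and at both *gst-42* sites, 3 of the 5 IDR regions of the pathway, against 34.4% of all IDR regions and 14.6% of pooled regions. It also lay near the replicate 2 summit of *tatn-1*, in 3 places of which 2 overlap, near the farther replicate 2 summit of *fah-1* and near the strongest replicate 1 summit of *hgo-1*. CACGTG, which reads the same on both strands, was looked for after the printed sequences had been seen. It lay within 100 bases of the *gst-42* start summit in the pooled and both replicate lists, 66 bases upstream of the start. At *hpd-1* it lay 50 bases from the nearer IDR summit, 1203 bases upstream. In replicate 2 it also lay 37 bases from the summit at the start of *hgo-1* and 86 bases from that of *tatn-1*. It was present at 9.56% of IDR regions and 3.90% of pooled regions. The 4 genes were chosen after their values were seen, and no test was made.

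AGACGC, sought on both strands, was likewise looked for only after the printed sequences had been seen. It was present at the *gst-42* start summit and at the pooled *tatn-1* summit, where WGATAR was absent, 16 bases from that summit. It occurred at 13.7% of IDR regions and 5.20% of pooled regions. Among the tryptophan genes, *kynu-1* (named after its values were seen) had a strong region in each replicate at different positions, 411 bases upstream in replicate 2 (rank 431) and 194 bases upstream in replicate 1 (rank 646), and pooled rank 1974, below the IDR list.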
